A study of Mus musculus with 4 samples.

Results

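The nuclear genes of the last steps of mitochondrial respiration were followed here in 2 populations of cultured mouse helper T cells: the subunits of complex III, complex IV and the ATP synthase, with cytochrome c. Members were taken by symbol, as every gene whose name starts with Uqcr, with Cox4, Cox5, Cox6, Cox7 or Cox8, or with Atp5, together with Cyc1 and Cycs. The rule found 46 genes among the 23284 gene symbols of the tables, none of them repeated, and used no measured value. Of these, 9 encode complex III subunits, 10 the common forms of complex IV subunits and 15 ATP synthase subunits, and Cycs encodes cytochrome c. The other 11 are tissue forms of complex IV subunits (7 genes), the supercomplex factor Cox7a2l, and 3 genes that carry such a name without encoding a subunit.

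The cells were CD4 T cells from the spleen of BALB/c mice, an inbred strain, held in Th1 culture, the condition that drives helper T cells toward interferon-gamma production, with 15 ng/ml IL-2 and 10 ng/ml IL-12. The labels state 4 days of culture in one field and 5 in another. From this culture the CCR7hiCD137lo cells (much of the lymph node homing receptor CCR7, little of the activation receptor CD137) and the CCR7loCD137hi cells (the reverse) were sorted, and each population has 2 libraries, numbered 1 and 2. No genotype or further treatment separates the groups, and the labels do not say whether the libraries come from separate mice or cultures, so the p-values measure only the spread between these libraries. Values are FPKM, fragments scaled by transcript length and library depth, which allows levels of different genes to be compared. Between libraries the values also depend on scaling, so the main counts are given under other scalings as well. Differences are CCR7loCD137hi minus CCR7hiCD137lo on the log2(FPKM + 1) scale, which understates those of low genes.

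Complex III (cytochrome bc1) takes electrons from ubiquinol and passes them to cytochrome c, a small soluble carrier. Complex IV (cytochrome c oxidase) hands them to oxygen, and both complexes pump protons across the inner mitochondrial membrane. The ATP synthase lets those protons flow back through a rotating ring of c subunits and makes ATP in its F1 head. The catalytic cores of complex IV and cytochrome b of complex III are encoded by mitochondrial DNA and are not analysed here. Activated T cells combine glycolysis with respiration, and respiratory capacity is a known feature of memory T cells.

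Many nuclear respiratory genes are known to carry promoter motifs for nuclear respiratory factor NRF1, for ETS factors such as GABPA, and for YY1. RefSeq promoters (build GRCm38.p6, from 250 bases before to 50 after the start) were found for 35 of the 46 members, and 34 promoters of 31 of them (without Atp5s, Atp5sl, Cox7b2 and Cox8b) were searched on both strands. The NRF1 motif (GCGC and a second GCGC separated by any 2 bases, which reads alike on both strands) was in 8 of the 34 (23.5%) and in 6.23% of 32851 promoters of the same length, and the ETS motif CCGGAAGT was in 4 (11.8%, against 3.89%). The YY1 motif AAGATGGCG was in 2 (5.88%, against 1.40%), and at least 1 of the 3 motifs was in 13 (38.2%, against 10.7%). NRF1 matches were in Atp5c1, Atp5g2, Atp5g3, Atp5h, Atp5k, Atp5o, Cox6a1 and Uqcrc1. ETS matches were in Atp5h, Cox8a, Uqcr11 and Uqcrh, and YY1 matches in Atp5j and Atp5j2. The 32851 promoters were not matched to the members in expression level or base composition. A match describes letters in a window and not a bound site.

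Stretches upstream of 3 genes are shown, 5′ to 3′ on the strand of the gene, with motif matches in capitals. Cox5b and Uqcrfs1 had the largest positive differences among the common complex IV subunits and complex III, and no match in this window, and Cox6a1 holds 2 NRF1 matches. The stretches are Cox5b at chr1:36691299-36691448 (plus strand), Uqcrfs1 at chr13:30545363-30545512 (minus strand) and Cox6a1 at chr5:115348982-115349129 (minus strand). They end 38, 46 and 23 bases before the annotated start, and come from the reference genome rather than from BALB/c.
Cox5b: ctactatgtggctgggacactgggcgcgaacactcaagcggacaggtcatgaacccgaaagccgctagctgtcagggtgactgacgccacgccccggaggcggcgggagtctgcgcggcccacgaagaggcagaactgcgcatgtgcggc
Uqcrfs1: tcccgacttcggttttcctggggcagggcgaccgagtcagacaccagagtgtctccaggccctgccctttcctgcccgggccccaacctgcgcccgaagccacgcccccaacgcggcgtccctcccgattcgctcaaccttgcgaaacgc
Cox6a1: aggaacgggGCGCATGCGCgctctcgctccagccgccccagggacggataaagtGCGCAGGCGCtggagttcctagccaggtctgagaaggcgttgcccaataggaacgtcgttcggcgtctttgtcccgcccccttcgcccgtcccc

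The sorting markers followed the labels. Ccr7 measured 93.4 and 118.4 FPKM in CCR7hiCD137lo against 39.6 and 38.2 in CCR7loCD137hi, and Tnfrsf9, which encodes CD137, at 0.961 and 6.25 against 158.2 and 183.8. T cell markers (6 of 7 measured) summed to 957.4 to 1218 FPKM. B cell markers summed to 0.0917 and 0.145 FPKM in CCR7hiCD137lo and to 4.86 and 0.529 in CCR7loCD137hi, myeloid markers to 1.57 and 0.753 against 2.66 and 3.82, and erythroid markers to 0 and 0 against 0.778 and 1.56. The CD8 T and NK list summed to 12.05 and 21.76 against 40.91 and 32.91 FPKM. Most of each sum was Eomes, a transcription factor that CD4 T cells can also express, at 9.42 and 17.18 against 26.45 and 28.53. The sum outside Eomes was largest in CCR7loCD137hi replicate 1, which also had the largest B cell sum. The part of these marker genes in the results was not tested. Depth is not stated in the files. Low values put the libraries at relative depths of 1 and 0.631 (CCR7hiCD137lo, numbers 1 and 2) and 0.565 and 0.307 (CCR7loCD137hi). If a fragment is 200 nt, then among the 34 members that averaged 50 FPKM or more and matched a GENCODE transcript (Atp5o did not), the thinnest, Uqcrb, rests on about 656, 407, 412 and 158 fragments.

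The genes of the 3 complexes were expressed at a high level in both populations, and none passed the test between them. The 46 members together held 1.84% and 1.69% of the summed FPKM in CCR7hiCD137lo and 1.92% and 1.68% in CCR7loCD137hi, so the populations overlapped. Of the 46 members, 42 averaged 1 FPKM or more and were tested. With limma, a linear model with moderated variances, 0 of the 42 had an adjusted p under 0.05 (0.0572% of the 10496 genes tested did, 6 genes), and 0 had an unadjusted p under 0.05 (8.13% of all genes). The lowest unadjusted limma p of a member was 0.0572, for Cox5b. In bulk RNA, fewer cells that express a gene and less of its RNA per cell cannot be told apart.

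**Figure D1:**
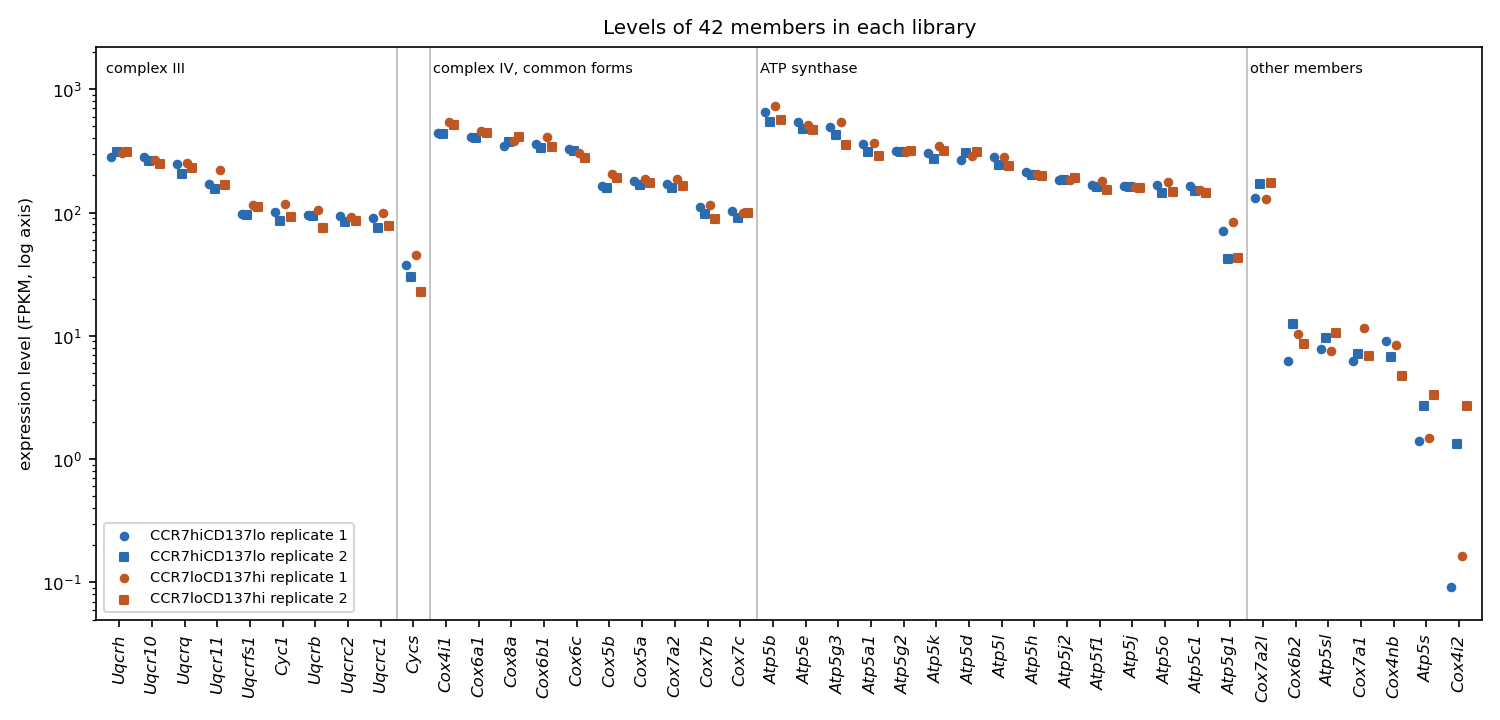
Level of each of the 42 tested members (FPKM, log axis) in the 4 libraries, with colours for the populations and circles and squares for replicates 1 and 2. Most subunits lie between 74.77 FPKM and 728.2 FPKM with the populations close together, while the tissue forms of complex IV lie below 13 FPKM.

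The differences were small and mostly on the positive side. The fitted difference was above 0 in 28 of 42 members (66.7%), against 47.9% of all genes tested, and its median was 0.05, against -0.01 over all genes. The median over members was 0.09 in the libraries numbered 1 and 0.03 in those numbered 2. The median size of the difference was 0.08 for members and 0.16 for all genes, and the median 95% interval of a member reached 0.36 to either side. The balance of signs depended on the scaling and on single libraries. The median over members was -0.03 without CCR7loCD137hi replicate 1, -0.01 without CCR7hiCD137lo replicate 2 and 0.13 without CCR7loCD137hi replicate 2. After quantile normalization 22 of 42 were above 0 (43.1% of all genes) with a median of 0.004. Short RNA genes held 18.2% and 17.2% of the summed FPKM in CCR7hiCD137lo and 14.9% and 17.3% in CCR7loCD137hi. After rescaling to the FPKM outside short RNA genes, 19 of 42 were above 0 (39.4% of all genes) and the median became -0.01.

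In 6 members both CCR7loCD137hi libraries were above both CCR7hiCD137lo libraries, 14.3% of members, against 16.6% of all genes: Uqcrfs1, Cox4i1, Cox5b, Cox6a1, Cox8a and Atp5k. In 2 members, Cox6c and Atp5j, both were below (4.76%, against 21.5% of all genes), and in 34 the populations overlapped. The first share is near that of all genes. Under quantile normalization 5 of the 6 stayed apart (without Cox8a), and after rescaling without short RNA genes 4 did (Cox4i1, Cox5b, Cox6a1 and Uqcrfs1). Over all 10496 genes, 1620 and 1368 had both CCR7loCD137hi libraries above under these scalings, in place of 1738. The members with both CCR7loCD137hi libraries below numbered 6 under quantile normalization and 5 after that rescaling, in place of 2. Over all 10496 genes the count below rose as well, to 2586 and 2947, in place of 2256.

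**Figure D2:**
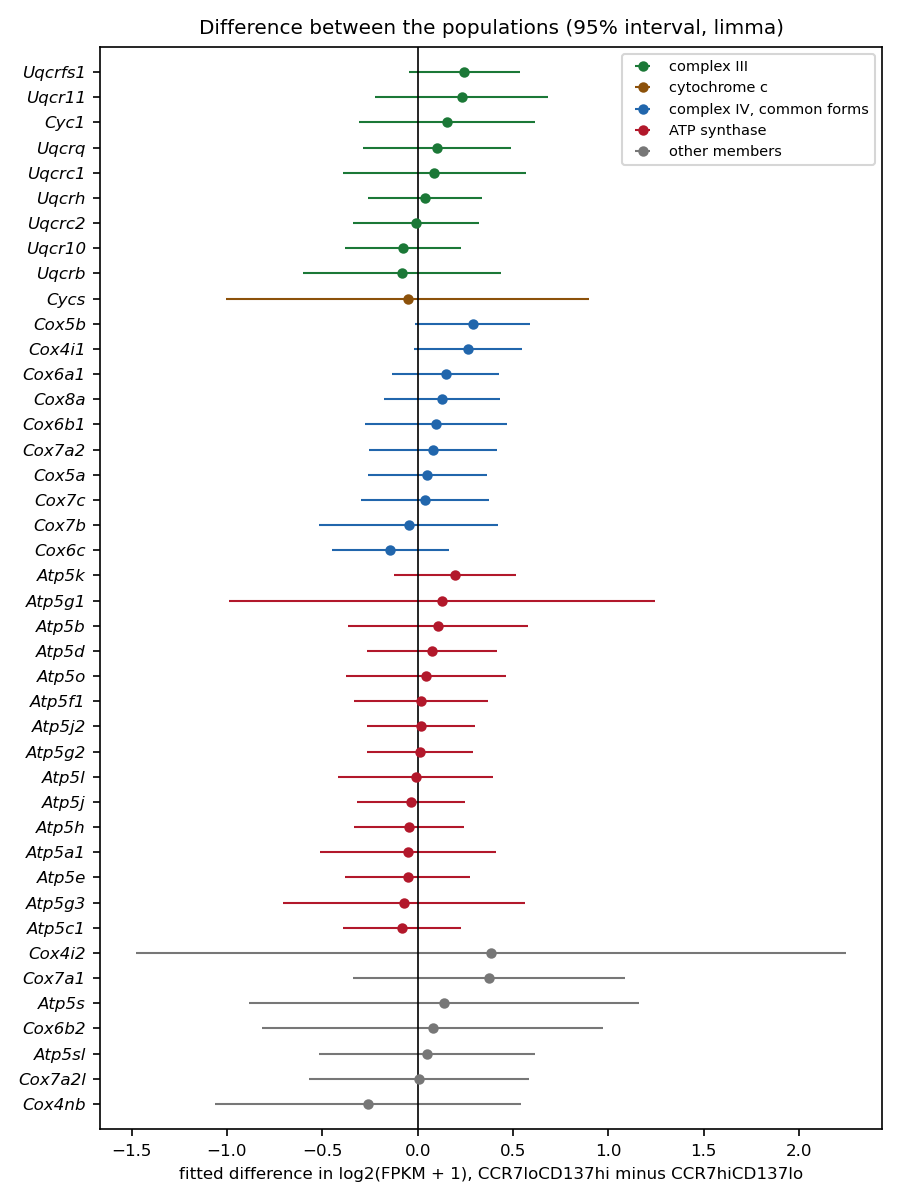
Fitted difference in log2(FPKM + 1), CCR7loCD137hi minus CCR7hiCD137lo, with its 95% interval from limma, for the 42 tested members grouped by complex. Every interval includes 0, that of Cox5b by the smallest margin (-0.01 to 0.59), and Cox4i2 has the widest.

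Complex III was represented by 9 genes with means of 85.47 to 302.1 FPKM. Of these, 6 had a difference above 0, and the median was 0.09 (0.12 within number 1 and 0.06 within number 2). After quantile normalization the median was 0.08 with 6 above 0, and after rescaling without short RNA genes 0.03 with 5 above 0. None passed the test.

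Uqcrfs1 encodes the Rieske iron-sulfur protein, which carries electrons from ubiquinol toward cytochrome c1, and lies at chr13:30540312-30545316 (mm10). It stood at 96.95 and 95.08 FPKM in CCR7hiCD137lo against 116.0 and 111.9 in CCR7loCD137hi. Both CCR7loCD137hi libraries were the higher, and replicates lay close together. The difference was 0.24 (SE 0.11, 1.19-fold between the means), with a limma p of 0.0818, adjusted 0.678. The longest annotated coding transcript of Uqcrfs1 shares no 50-base stretch with another annotated gene.

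The most expressed genes of the complex were the small subunits Uqcrh, the hinge protein beside cytochrome c1, and Uqcr10. Uqcrh stood at 284.4 and 312.0 FPKM against 303.7 and 308.3, a difference of 0.04 (SE 0.11, limma adjusted p 0.953). Uqcr10 stood at 280.5 and 260.8 against 264.8 and 248.3, a difference of -0.08 (SE 0.11, limma adjusted p 0.892). In both genes the populations overlapped. Uqcrb, which lies next to the ubiquinone-binding site, had the largest negative difference of the complex, -0.08 (SE 0.20, limma adjusted p 0.942). Its levels were 94.95 and 93.44 FPKM against 105.6 and 74.89, so 1 CCR7loCD137hi library was the highest of the 4 and the other the lowest. The lowest was also the shallowest library, and 43.4% of the 50-base stretches of Uqcrb also occur in other genes.

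Uqcr11, singled out after its values were seen, had the largest difference of the complex within number 1. This small accessory subunit stood at 171.5 and 156.2 FPKM in CCR7hiCD137lo against 219.4 and 168.2 in CCR7loCD137hi. The difference was 0.35 within number 1 and 0.11 within number 2, and the ranges of the populations overlapped (limma adjusted p 0.776). The remaining 4 genes are the core proteins Uqcrc1 and Uqcrc2, Cyc1 (cytochrome c1, which gives the electron to cytochrome c) and Uqcrq. Their levels ran from 74.77 to 253.6 FPKM and their differences from -0.01 (Uqcrc2) to 0.15 (Cyc1), with overlap in all 4.

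Cycs, which encodes the somatic cytochrome c that also activates caspases once released into the cytosol, was measured at 37.7 and 29.74 FPKM in CCR7hiCD137lo against 45.53 and 22.75 in CCR7loCD137hi. The CCR7loCD137hi libraries were the highest and the lowest of the 4. The difference was 0.27 within number 1 and -0.37 within number 2, and -0.05 in the fit (SE 0.36, limma adjusted p 0.981). The value is uncertain, since 28.5% of the 50-base stretches of Cycs also occur in other annotated genes, 76 in all.

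Complex IV had 4 of the 6 members whose CCR7loCD137hi libraries both stood above. They were 40.0% of its 10 common subunit genes, against 16.6% of all genes and 18.7% of those averaging 30 FPKM or more. Such genes numbered 3 under quantile normalization and 3 after rescaling without short RNA genes. The 10 common subunit genes had means of 97.77 to 481.4 FPKM. Of these, 8 had a difference above 0, and the median was 0.09 (0.12 within number 1 and 0.10 within number 2). Under quantile normalization the median was 0.02 with 7 above 0, and after rescaling without short RNA genes 0.03 with 6 above 0. None passed the test.

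Cox5b, at chr1:36691487-36693388 (mm10), encodes a zinc-binding subunit on the matrix side of the enzyme. It stood at 165.2 and 157.7 FPKM in CCR7hiCD137lo (161.5 ± 5.30, SD, n = 2) and at 204.7 and 190.2 in CCR7loCD137hi (197.4 ± 10.3, SD, n = 2). Both CCR7loCD137hi libraries were the higher. The difference was 0.29 (SE 0.11, 1.22-fold between the means), with a limma p of 0.0572, adjusted 0.624. Within numbers it was 0.31 and 0.27, and Cox5b was the only member that reached 0.25 in the same direction in both, as 10.7% of all genes did upward and 7.58% downward. Of its 50-base stretches, 25.9% also occur in other genes, so part of its fragments could be placed elsewhere.

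Cox4i1, at chr8:120668290-120674209 (mm10), encodes the subunit through which ATP inhibits the enzyme, and was the most expressed gene of complex IV. Its levels were 439.6 and 435.3 FPKM in CCR7hiCD137lo and 542.2 and 508.7 in CCR7loCD137hi. The CCR7loCD137hi libraries were again both higher, by 0.26 (SE 0.11, 1.20-fold between the means), with a limma p of 0.0625, adjusted 0.640. Annotated exons of Cox4i1 overlap those of Emc8 on the opposite strand, which stands in the tables as Cox4nb, and the use of strand in counting is not given in the sources used here. Cox4nb, a subunit of the membrane protein insertase of the endoplasmic reticulum, was far lower, at 9.07 and 6.72 FPKM against 8.46 and 4.74.

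Cox6a1 and Cox8a, membrane-spanning subunits, also lay apart between the populations, by less. Cox6a1 stood at 413.3 and 400.6 FPKM against 460.1 and 441.4, a difference of 0.15 (SE 0.11, limma adjusted p 0.771). Cox8a stood at 349.0 and 374.6 against 379.9 and 411.6, a difference of 0.13 (SE 0.12, limma adjusted p 0.817). The gap between the Cox8a groups was 379.9 against 374.6 FPKM, and it closed under quantile normalization. Cox6c, a small membrane subunit, lay the other way at 329.2 and 314.9 FPKM against 306.5 and 277.4, a difference of -0.14 (SE 0.12, limma adjusted p 0.801). Subunits of the same enzyme thus had differences of both signs.

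Cox6b1, which joins the monomers of the dimeric enzyme, stood at 358.0 and 334.8 FPKM against 406.3 and 337.4 (difference 0.10, limma adjusted p 0.890). Cox7a2 stood at 170.0 and 159.2 FPKM against 185.7 and 163.0 (difference 0.08, limma adjusted p 0.90). Cox7b stood at 110.4 and 97.03 FPKM against 114.4 and 87.79 (difference -0.05, limma adjusted p 0.966). In all 3 the populations overlapped and the libraries numbered 1 were the higher of each population. The last common subunits, Cox5a, a matrix-side subunit, and Cox7c ran from 89.86 to 185.3 FPKM, with differences of 0.05 and 0.04.

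Complex IV has tissue forms of several subunits, and these were far below their common forms. Cox7b2, Cox8b and Cox8c, known from testis or from heart and muscle, were listed at 0 in all 4 libraries. Cox6a2, the heart and muscle form of Cox6a1, was listed at 0 in 3 and at 0.695 FPKM in CCR7loCD137hi replicate 2. For a transcript of 1 kb, 3 fragments would correspond to 0.182, 0.289, 0.323 and 0.595 FPKM in CCR7hiCD137lo numbers 1 and 2 and CCR7loCD137hi numbers 1 and 2, which covers counting error only. These 4 genes have shorter transcripts, 360 to 680 nt in GENCODE, for which the same 3 fragments correspond to higher values, so a low level of them cannot be told from 0 here.

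Cox4i2, the lung form of subunit 4 known to be induced by low oxygen, stood at 0.0926 and 1.32 FPKM in CCR7hiCD137lo against 0.164 and 2.72 in CCR7loCD137hi. It entered the test only through the libraries numbered 2, and made up 0.0211% to 0.532% of the Cox4i1 and Cox4i2 sum. Cox6b2, the testis form, stood at 6.23 and 12.58 FPKM against 10.37 and 8.64, between 1.71% and 3.62% of the Cox6b1 and Cox6b2 sum. Cox7a1, the heart and muscle form, stood at 6.30 and 7.13 FPKM against 11.67 and 6.86, and at 3.57%, 4.29%, 5.91% and 4.04% of the Cox7a1 and Cox7a2 sum. Its fitted difference was 0.37 (SE 0.27, limma adjusted p 0.771) and rested on CCR7loCD137hi replicate 1, without which it was 0.03. In every library the common form of these pairs was the main one.

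Cox7a2l, which helps to join complexes III and IV into supercomplexes, followed the replicate number rather than the population. It stood at 131.4 and 171.0 FPKM in CCR7hiCD137lo against 129.9 and 175.1 in CCR7loCD137hi. The libraries numbered 2 were higher by 0.38 and 0.43, while the difference between populations was 0.01 (SE 0.22, limma adjusted p 0.998). Its share of the Cox7a family sum was 42.7% and 39.7% in the libraries numbered 1 and 50.7% and 50.8% in those numbered 2.

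Of the 15 ATP synthase genes, 8 had a difference above 0, with a median of 0.01 (0.003 within number 1 and -0.02 within number 2). Their means ran from 59.8 to 623.0 FPKM. Under quantile normalization 4 of 15 were above 0 with a median of -0.06, and after rescaling without short RNA genes 4 of 15 with a median of -0.05, so the sign of the median turned with the scaling. None passed the test.

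The F1 head has 5 genes among the members, 2 of them above 0, with a median difference of -0.05. Atp5b encodes the catalytic beta subunit and was the most expressed member, at 650.9 and 546.5 FPKM in CCR7hiCD137lo and 728.2 and 566.5 in CCR7loCD137hi. The libraries numbered 1 were higher than those numbered 2 in both populations, and the difference of 0.11 (SE 0.18, limma adjusted p 0.904) was smaller than that spread. Atp5e, the epsilon subunit, stood at 539.9 and 478.1 FPKM against 510.7 and 469.4 (difference -0.05, limma adjusted p 0.940). Atp5c1, the central stalk subunit gamma that turns within the head, had means of 157.0 ± 9.95 and 148.3 ± 5.27 FPKM (SD, n = 2; difference -0.08, limma adjusted p 0.890). Atp5a1 (the alpha subunit) and Atp5d (delta) ran from 264.9 to 363.3 FPKM with differences of -0.05 and 0.08.

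Subunit c, which forms the rotating ring, is encoded by Atp5g1, Atp5g2 and Atp5g3, whose mature proteins are known to be identical. Atp5g3 gave the largest share in every library, 56.1% and 55.0% of the summed FPKM of the 3 genes in CCR7hiCD137lo and 57.8% and 49.6% in CCR7loCD137hi. Atp5g2 gave 35.8% and 39.6% against 33.3% and 44.5%, and Atp5g1 8.09% and 5.35% against 8.90% and 5.97%. The shares thus sorted by replicate number: in both populations Atp5g2 had the larger share in number 2 and Atp5g1 in number 1.

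**Figure D3:**
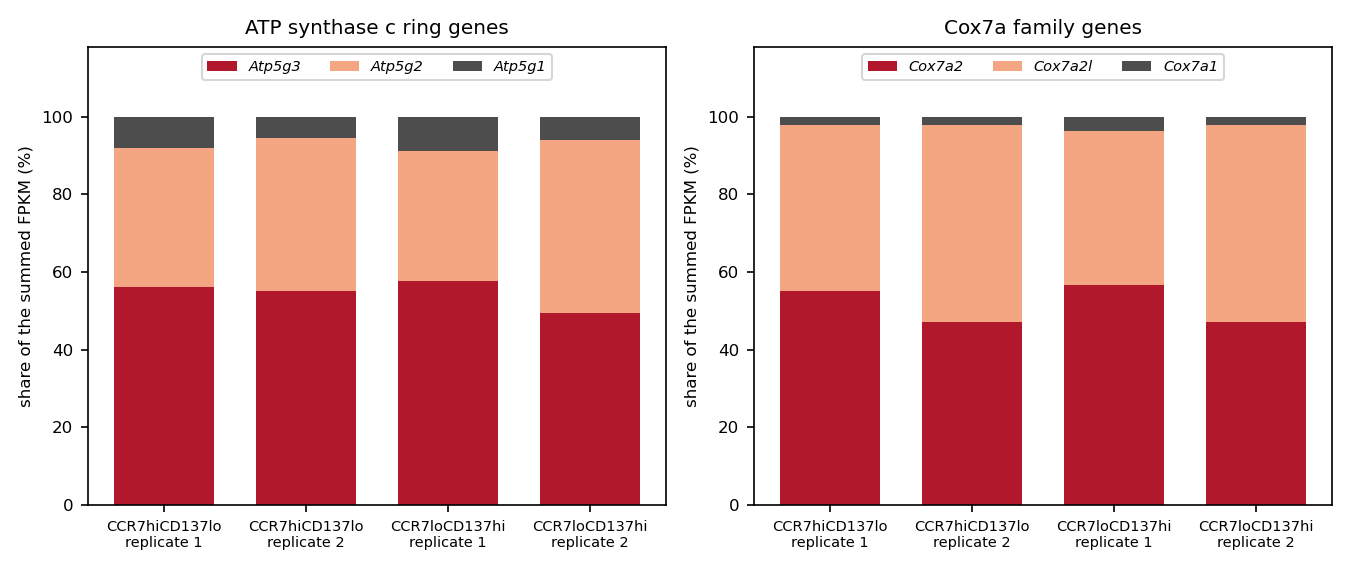
Share of the summed FPKM of the c ring genes (left) and of the Cox7a family (right) that each gene took in the 4 libraries, as percent. The libraries numbered 2 show the larger Atp5g2 shares (39.6% and 44.5%) and the larger Cox7a2l shares (50.7% and 50.8%) in both populations.

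In levels, Atp5g1 stood at 71.4 and 41.68 FPKM in CCR7hiCD137lo against 83.51 and 42.6 in CCR7loCD137hi. The libraries numbered 2 were lower by 0.76 and 0.95, against a difference between populations of 0.13 (SE 0.42, limma adjusted p 0.959). Atp5g2 stood at 315.8 and 308.7 FPKM against 312.4 and 317.4 (difference 0.01, limma adjusted p 0.986), the 4 libraries nearly level. Atp5g3 stood at 494.9 and 428.3 FPKM against 542.9 and 353.9 (difference -0.07, SE 0.24, limma adjusted p 0.960). As in Uqcrb and Cycs, the CCR7loCD137hi libraries of Atp5g3 were the highest and the lowest of the 4. The Atp5g2 value is uncertain, since 87.4% of its 50-base stretches also occur in other genes, mostly in Gm10175, while Atp5g3 shares none. Atp5g1 shares 11.6% of its stretches, with 366 other genes.

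Of the 7 genes of the stalks and the membrane part, Atp5k stood apart. It encodes subunit e, which lies at the interface where ATP synthase dimers form and bend the inner membrane, and lies at chr5:108433253-108434378 (mm10). Its levels were 303.8 and 273.7 FPKM in CCR7hiCD137lo and 343.6 and 317.5 in CCR7loCD137hi, with both CCR7loCD137hi libraries higher. The difference was 0.20 (SE 0.12, 1.15-fold between the means, limma adjusted p 0.753), with 0.18 within number 1 and 0.21 within number 2. Atp5l, subunit g, which sits beside subunit e, stood at 283.2 and 241.0 FPKM against 282.2 and 238.3 (difference -0.01, limma adjusted p 0.989). The population values of Atp5l were nearly equal within each number, although 84.8% of its 50-base stretches also occur in other genes.

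Atp5h, subunit d of the side stalk, stood at 211.7 and 203.4 FPKM against 205.4 and 196.8 (difference -0.05, limma adjusted p 0.942). The Atp5h value is uncertain, since 47.9% of its 50-base stretches also occur in other genes. Atp5j, coupling factor 6 of the same stalk, was the other gene with both CCR7loCD137hi libraries below, at 164.5 and 162.3 FPKM against 160.5 and 158.8. It is named only for that order, and its difference of -0.03 (SE 0.11, limma adjusted p 0.958) is smaller than its SE. The remaining Atp5f1, Atp5j2 and Atp5o ran from 142.7 to 189.3 FPKM with differences of 0.02, 0.02 and 0.05. The misnamed Atp5s and Atp5sl stood at 1.40 and 2.69 against 1.47 and 3.33 FPKM, and at 7.81 and 9.54 against 7.57 and 10.61.

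Within replicate numbers, 19 members (45.2%) were higher in CCR7loCD137hi in both, against 33.0% of all genes, 8 (19.0%) were lower in both, against 35.9%, and 15 went opposite ways. Some of the opposite cases were wide, as in Cycs, Uqcrb and Atp5g3. For these 3 the CCR7loCD137hi library was higher in number 1 by 0.27, 0.15 and 0.13, and lower in number 2 by 0.37, 0.32 and 0.27. There is 1 library per population within a number, so these differences have no test.

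**Figure D4:**
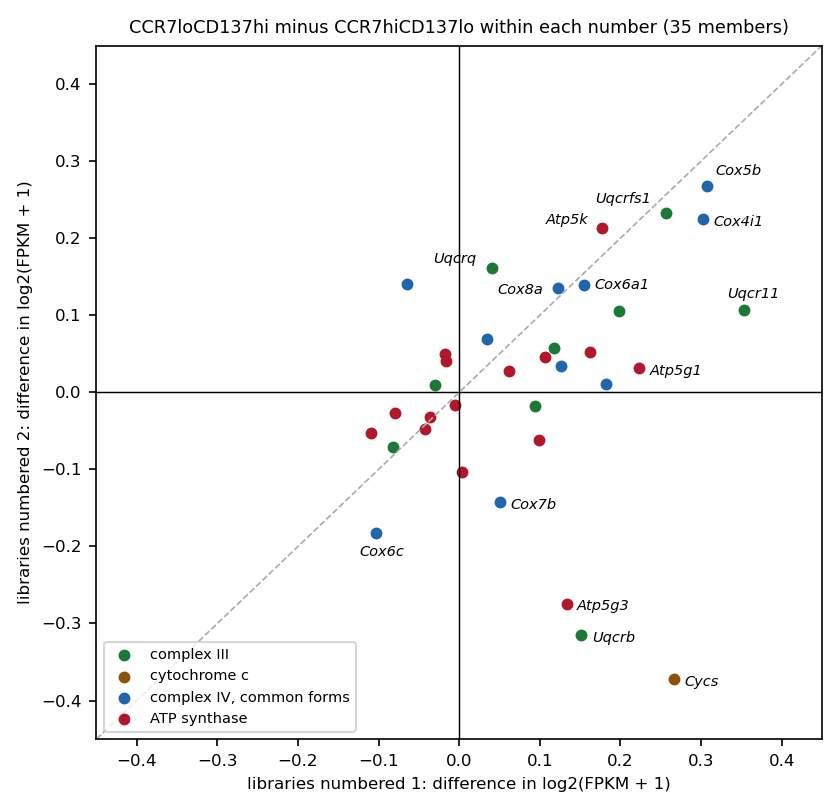
CCR7loCD137hi minus CCR7hiCD137lo in log2(FPKM + 1) for the libraries numbered 1 (horizontal) and numbered 2 (vertical), for the 35 common subunits and cytochrome c, coloured by complex. Cox5b, Cox4i1 and Uqcrfs1 lie furthest to the upper right near the dashed line of equality, Cox6c lies at lower left, and Cycs, Uqcrb and Atp5g3 lie at lower right.

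The members, like all genes, separated the libraries by number more often than by population. Over all 10496 genes, both libraries numbered 2 were below both numbered 1 in 2073 and above in 3207. Both CCR7loCD137hi libraries were above both CCR7hiCD137lo libraries in 1738 and below in 2256. In 30 of 42 members (71.4%) the library numbered 2 was lower than that numbered 1 in both populations, against 29.4% of all genes and 42.5% of the genes that averaged 30 FPKM or more. In 23 members (54.8%) both libraries numbered 2 were below both numbered 1, against 19.8% of all genes and 29.9% of those with a mean of at least 30 FPKM. The median of number 2 minus number 1 over members was -0.10 in CCR7hiCD137lo and -0.12 in CCR7loCD137hi, against 0.08 and 0.03 over all genes. The pattern held in 8 of 9 complex III genes, 8 of 10 common complex IV genes and 12 of 15 ATP synthase genes. Outside the members, the share lower in number 2 in both populations was 54.3% in 35 complex I genes. It was 71.1% in 76 mitochondrial ribosomal protein genes, 75.0% in 12 general mitochondrial genes and 12.3% in 81 cytosolic ribosomal protein genes.

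Its size depended on the scaling. Under quantile normalization 21 of 42 members were lower in number 2 in both populations, against 37.5% of all genes, and after rescaling without short RNA genes 30 of 42, against 32.5%. The libraries numbered 2 were the shallower of each population, 0.631 against 1 and 0.307 against 0.565 in relative depth, and the part of depth in this order was not tested. Both libraries numbered 2 were above both numbered 1 in 3207 of all 10496 genes. Among the 42 members there were 6: Uqcrh, Atp5d, Cox7a2l, Cox4i2, Atp5s and Atp5sl. Of these, Atp5d, named after its values were seen, stood at 264.9 and 301.6 FPKM in CCR7hiCD137lo against 285.1 and 311.4 in CCR7loCD137hi.

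**Figure D5:**
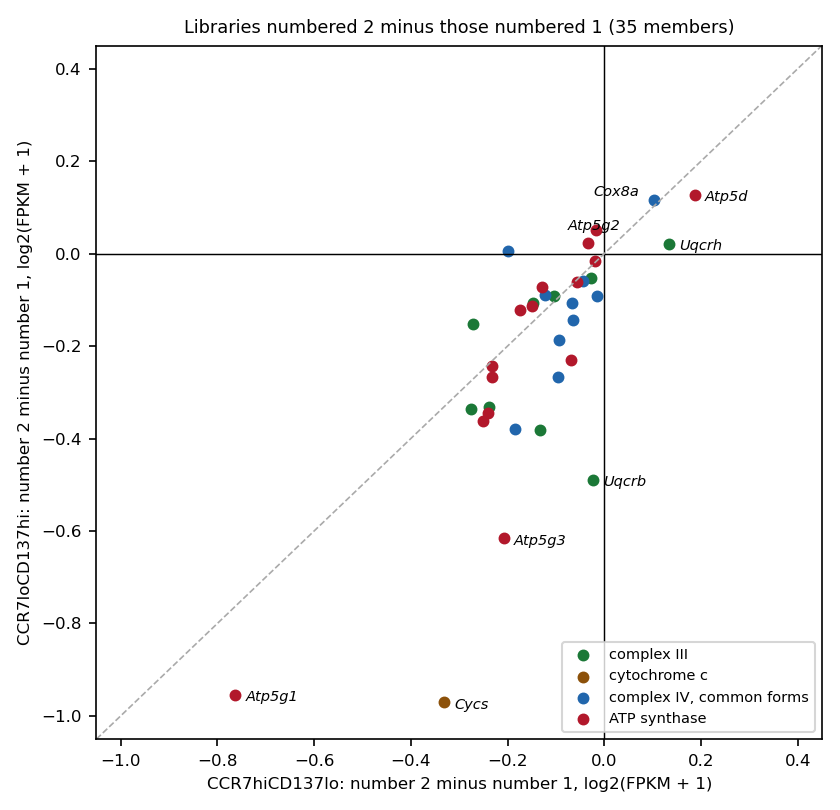
Number 2 minus number 1 in log2(FPKM + 1) in CCR7hiCD137lo (horizontal) and CCR7loCD137hi (vertical) for the 35 common subunits and cytochrome c, coloured by complex. Most points lie at lower left, where number 2 is lower in both populations, with Atp5g1 (-0.76 and -0.95) and Cycs (-0.33 and -0.97) furthest out, while Atp5d, Cox8a and Uqcrh lie at upper right.

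Complex I, which feeds electrons to ubiquinone, was read beside them: 25 of 35 tested subunit genes had a difference above 0, with a median of 0.07, and 10 (28.6%) had both CCR7loCD137hi libraries above, against 16.6% of all genes. Its median was 0.03 with 6 such genes of 35 under quantile normalization, against 1620 of all 10496 genes. After rescaling without short RNA genes its median was 0.02 with 7 such genes, against 1368 of all 10496. Cytosolic ribosomal proteins, other abundant short transcripts, were above 0 in 77 of 81, with a median of 0.16 (0.04 and 0.10 under the same scalings), and were lower in number 2 in both populations in 12.3%. Mitochondrial ribosomal proteins had a median of 0.04 (0.03 and -0.02) with 48 of 76 above 0, and were lower in number 2 in both populations in 71.1%. No gene of these 3 lists passed the limma test at an adjusted p under 0.05, and the lists were not tested against each other.

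Genes that assemble, extend or regulate these complexes were described from further lists, of which 64 genes were tested. None had a limma adjusted p under 0.05, 1 had an unadjusted p under 0.05, 30 were above 0, and the median difference was -0.03. Of the assembly factors, 3 of 6 for complex III, 8 of 22 for complex IV and 1 of 3 for ATP synthase were above 0. The most expressed complex IV factor, the copper chaperone Cox17, stood at 165.2 and 226.1 FPKM against 233.1 and 266.0 (difference 0.36, SE 0.19), with both CCR7loCD137hi libraries higher. Uqcc2, listed in the tables as 2900010M23Rik and needed for cytochrome b synthesis, stood at 46.92 and 43.2 FPKM against 48.23 and 57.16. Atpaf2, which helps to assemble F1, stood at 20.63 and 17.7 FPKM against 21.89 and 18.36.

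The list of mitochondrial biogenesis regulators includes Nrf1, Gabpa, Yy1, Esrra and Tfam, whose single values are not given here. As a list it lay mostly on the lower side, with 4 of 13 above 0 (47.9% of all genes) and a median difference of -0.17. In 7 of the 13 both CCR7loCD137hi libraries were below (21.5% of all genes). In 5 of the 13 both were below under quantile normalization, against 2586 of all 10496 genes. After rescaling without short RNA genes both were below in 7, against 2947 of all 10496. Myc, the most expressed of them, went the other way at 81.5 and 121.6 FPKM against 116.5 and 157.7 (difference 0.44, SE 0.26), with overlapping populations. Of general mitochondrial genes 10 of 12 were above 0, against 47.9% of all genes, with a median of 0.10. Under quantile normalization 9 were above 0 with a median of 0.07, and after rescaling without short RNA genes 6 with a median of 0.04. The most expressed of them, the ADP/ATP carrier Slc25a5, stood at 460.4 and 409.5 FPKM against 494.8 and 403.9. Of complex II genes 2 of 4 were above 0, with Sdhb, its iron-sulfur subunit, at 124.4 and 114.6 FPKM against 140.0 and 115.0. Of 4 further subunits and inhibitors 2 were above 0, the most expressed being 2010107E04Rik at 431.6 and 411.3 FPKM against 433.7 and 396.1. None of these genes passed the test.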

How the data were processed

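RNA of 2 libraries per population was measured. TRIzol extraction was followed by the TruSeq Stranded mRNA kit, per the labels' protocols. For each library the authors deposited a table of FPKM values with 23746 entries. The submitters' processing notes name Cufflinks 2.0.2, TopHat 1.3.2 and Bowtie 0.12.8 with mm10, without their roles. Annotation, filters, scaling between libraries and use of strand: not given in the sources used here.

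For 240 repeated symbols the entry with the highest mean was used. Genes with a mean of at least 1 FPKM were tested on log2(FPKM + 1), pseudocount 1, with limma 3.58.1 in R 4.3.3 (variance trend, two-sided, Benjamini-Hochberg adjustment over 10496 genes, threshold 0.05, residual degrees of freedom 2). The test was tried on simulated data first. With 2 libraries against 2, the smallest two-sided p of an exact permutation test is 0.333. Python 3.11.15, numpy 2.4.6, pandas 2.3.3 and matplotlib 3.10.9 were used.

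Members, gene lists and alternatives were chosen with earlier results of these data known. Members were named by a rule (the 2 most expressed and the largest differences of each role, differences of at least 0.25 in both numbers, isoform pairs), and others are said to be chosen after their values were seen or are given by range. Alternatives were pseudocount 0.1, no filter or a mean of at least 5 FPKM, quantile normalization, rescaling without the 805 short RNA entries, summed entries, no variance trend, the replicate number as a block, and leaving out each library.

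Relative depth came from ratios of low values, of which 59.7% to 61.2% lay at ratios of whole reads, against 0.39% to 0.47% at a typical depth. Absolute depth rests on 41 single-exon genes and an assumed fragment of 200 nt. Fragments per member use the longest annotated transcript and so overstate. GENCODE release M21 on mm10 matched 45 of 46 members and gave overlaps and shared 50-base stretches. The stretches were those of the longest annotated coding transcript of each member, compared on both strands. RefSeq gave promoters. File starts were raised by 1.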

Additional observations from a re-analysis of the deposited data

How the results depend on the processing

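No member passed an adjusted p of 0.05 in limma under any alternative run. With all 4 libraries kept, members at an unadjusted limma p under 0.05 were 0, except 2 with no filter and 4 with the replicate block. The share of all genes at that p was 8.13% in the main fit and is not given for these alternatives. Those 2 counts thus stand without a background here and are not read as a result about the members. The adjusted p of the 29 members named by rule ran from 0.158 to 1. Of their 346 values under alternatives 37 had the opposite sign, and 11 of the members kept their sign throughout. Over all genes, 6 calls became 1 with no filter, 2 under quantile normalization, 2 with no variance trend and 42 with the replicate block, and 12 to 30 when 1 library was left out (17 without CCR7hiCD137lo replicate 1, 23 without its replicate 2, 12 without CCR7loCD137hi replicate 1, 30 without its replicate 2), where the lone library is assumed to vary like the other group. The cause was not tested.

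The median difference of members ran from -0.0256 to 0.128 when 1 library was left out. Within number 1 it was 0.0009 under quantile normalization and 0.0107 after rescaling without short RNA genes. Among the 29 members named by rule, differences turned sign under quantile normalization for Atp5b (-0.0322), Atp5g2 (-0.0317) and Cox7a2l (-0.0701), and after rescaling for Atp5g2 (-0.0463), Atp5sl (-0.0027), Cox7a2l (-0.0496) and Uqcrh (-0.0198). Leaving out 1 library gave differences of both signs for 18 of them: Atp5b from -0.0742 to 0.2876, Atp5e from -0.1409 to 0.0341, Atp5g1 from -0.3503 to 0.6044, Atp5g2 from -0.0043 to 0.0287, Atp5g3 from -0.3786 to 0.2372, Atp5l from -0.1325 to 0.1106, Atp5s from -0.2677 to 0.5403, Atp5sl from -0.17 to 0.2693, Cox4i2 from -0.4523 to 1.2242, Cox4nb from -0.621 to 0.1003, Cox6b1 from -0.0372 to 0.2304, Cox6b2 from -0.3759 to 0.5328, Cox7a2 from -0.0137 to 0.1733, Cox7a2l from -0.2049 to 0.2223, Cox7b from -0.2352 to 0.1432, Cycs from -0.5386 to 0.4319, Uqcrb from -0.327 to 0.1628 and Uqcrh from -0.028 to 0.1053.

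The labels do not say that libraries of the same number share a mouse or culture. The differences between numbers in the 2 populations correlated across 10496 genes at r = 0.21 and across 42 members at r = 0.76, values that describe these libraries only. With the replicate block (1 residual degree of freedom), unadjusted limma p-values were 0.0164 for Cox5b, 0.0187 for Cox4i1, 0.0309 for Uqcrfs1 and 0.0466 for Atp5k, adjusted 0.158, 0.165, 0.194 and 0.226, and 0 members were called. Over all genes the block fit called 42, against 6 in the main fit. Its share of all genes at an unadjusted limma p under 0.05 is not given, so these p-values have no background here.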
